A study of Mus musculus with 2 samples.

Results

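The proteasome genes of the mouse were taken here as the genes with a protein-coding transcript whose symbol begins with Psma to Psmg followed by a digit. The pattern found 50 genes among 21901 protein-coding and 55536 annotated genes. By their known roles they were 7 alpha ring and 7 beta ring subunits of the core, 3 immunoproteasome subunits, 2 tissue-specific core subunits, 6 ATPases and 11 other subunits of the regulatory particle, 3 assembly chaperones of its base, 5 activators, 1 inhibitor, 4 assembly chaperones of the core and 1 gene that is no subunit. That last gene was Psmc3ip, a meiotic recombination factor named after the subunit it binds. A further 4 genes fit the pattern in name but had no protein-coding transcript and were left out.

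Total RNA, with ribosomal RNA reduced and spike-ins added, was sequenced from left cerebral cortex. The mice were male, 25 days old and of B6CASTF1/J, the first-generation cross of C57BL/6J and CAST/EiJ, with The Jackson Laboratory as source. There was 1 group of 2 animals, replicate 1 and replicate 2, with no treatment or engineered allele in the labels, so no groups could be tested against each other and no p-value is given. The labels give both libraries the same donor entry, and that they came from separate animals is taken from the separate biobank numbers and the word biological; every SD over 2 animals rests on this. Levels are in TPM of the gene table unless another table is named, a share of transcripts that accounts for length and can be compared between genes.

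The proteasome is the main protease of the cytosol and nucleus. Its core is a barrel of alpha rings, which gate the entrance, around beta rings, which hold the active sites, and a regulatory particle of ATPases and other subunits caps the barrel, binds ubiquitin-tagged proteins, strips the tag and threads them inside. Interferon can replace the constitutive active subunits by immunoproteasome counterparts, which change the peptides offered on MHC class I molecules, and other caps, the activators, open the barrel without ATP. In neurons the proteasome is known for its part in synaptic protein turnover.

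Whether reads of related members can be told apart bears on every level below, so the stretches that show it are printed first. Each pair is a 60-base coding stretch of the mm10 reference, read 5′ to 3′ from GENCODE M21 transcripts, with capitals at the bases that differ between the 2 genes of the pair. For the 3 immunoproteasome subunits the stretch is the one most like the constitutive counterpart, and it holds 10, 12 and 13 differences in the order shown.

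Psmb5: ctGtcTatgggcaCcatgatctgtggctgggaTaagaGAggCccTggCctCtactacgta
Psmb8: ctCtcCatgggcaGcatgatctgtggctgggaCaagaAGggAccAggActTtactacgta
Psmb6: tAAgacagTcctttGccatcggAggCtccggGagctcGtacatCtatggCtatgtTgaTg
Psmb9: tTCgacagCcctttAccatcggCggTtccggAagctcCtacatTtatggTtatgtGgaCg
Psmb7: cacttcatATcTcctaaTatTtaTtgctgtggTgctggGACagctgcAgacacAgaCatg
Psmb10: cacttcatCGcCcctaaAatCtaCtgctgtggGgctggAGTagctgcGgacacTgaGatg

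These stretches lie at chr14:54614468-54616560 (minus strand, across an intron) for Psmb5, chr17:34200232-34200731 (plus, across an intron) for Psmb8, chr11:70527210-70527269 (plus) for Psmb6, chr17:34183143-34183202 (minus) for Psmb9, chr2:38640177-38642200 (minus, across an intron) for Psmb7 and chr8:105937345-105937516 (minus, across an intron) for Psmb10. Over the whole aligned coding sequence Psmb5 and Psmb8 were 65.7% identical, Psmb6 and Psmb9 63.7%, and Psmb7 and Psmb10 62.9%. The longest identical runs were 18, 11 and 15 bases. None of these pairs shared a 100-base word between any of their annotated transcripts.

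The activator genes Psme2 and Psme2b were the opposite case and the only pair of members that shared 100-base words. Their coding sequences of 717 bases differed at 5 positions, with 1 identical run of 311 bases. The stretch shown is the one with the most differences, 3, and it lies at chr14:55588049-55588246 (minus strand, across an intron) for Psme2 and at chr11:48945576-48945635 (minus strand, without an intron) for Psme2b.

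Psme2: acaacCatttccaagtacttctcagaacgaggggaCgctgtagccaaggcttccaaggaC
Psme2b: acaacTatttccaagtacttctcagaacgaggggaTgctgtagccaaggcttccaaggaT

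Of the 50 members, 45 reached 1 TPM in both animals, which was 90% against 58.4% of all protein-coding genes. In the gene table the members below that level were Psmb8 and Psmb9 of the immunoproteasome, Psma8 and Psmb11 of the tissue-specific core and Psme2b. The median of the 50 was 46.8 ± 0.28 TPM (SD, n = 2), beside 15.6 ± 0.16 over the 12794 detected protein-coding genes, and 38 members lay above that median in both animals. The level of the members fell into steps by role. Constitutive subunits of the core and regulatory particle lay between 25.8 and 124.2 TPM, and activators and inhibitor mostly near 20. The assembly chaperones among the members lay near 10. In bulk tissue, fewer cells of a type and less RNA per cell cannot be told apart.

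**Figure D1:**
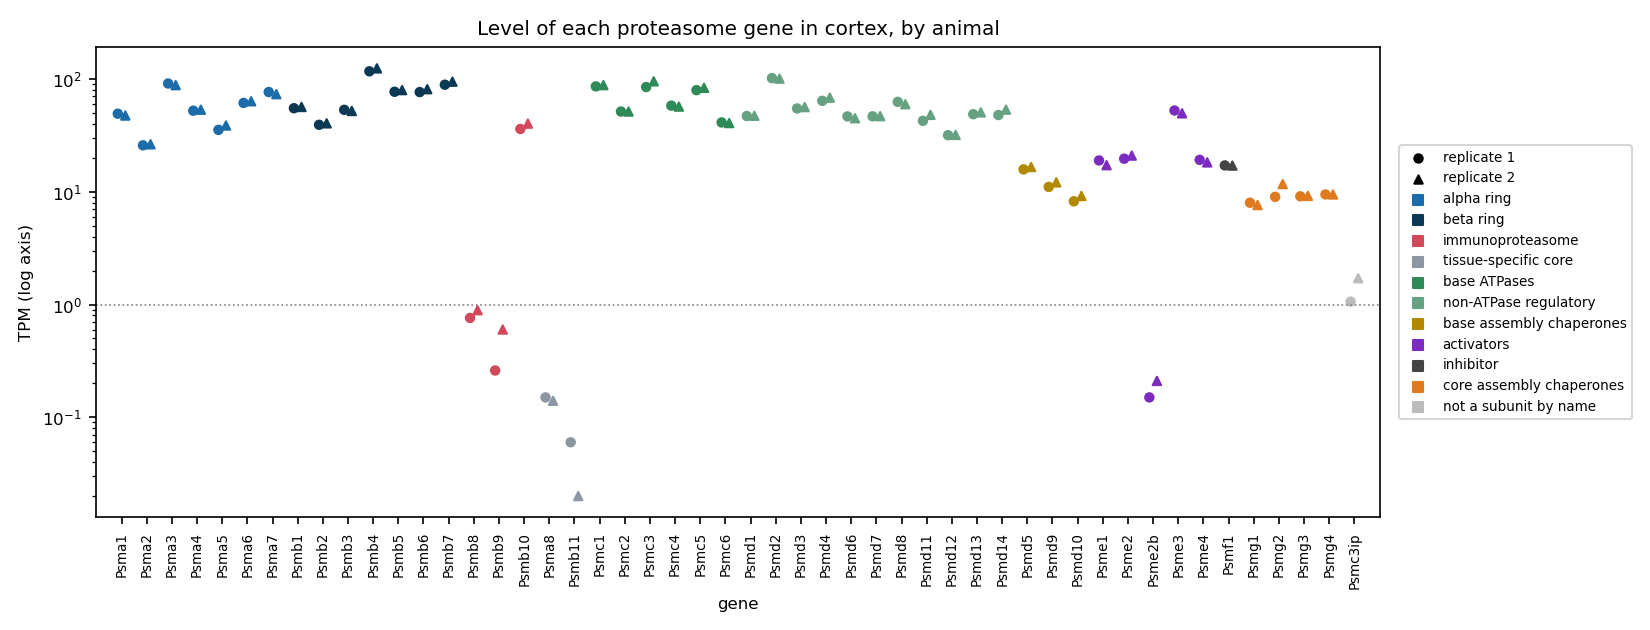
TPM on a log axis of each of the 50 genes (horizontal axis, ordered by role) in replicate 1 (circles) and replicate 2 (triangles), coloured by role; the dotted line marks 1 TPM. The constitutive subunits form a band above 25 TPM, assembly chaperones sit near 10, and 5 genes lie below the line in both animals.

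The 31 constitutive subunits of the core and regulatory particle were all above the median detected gene in both animals. Their median was 55.6 ± 1.09 TPM, and the highest exceeded the lowest 4.53-fold in replicate 1 and 4.72-fold in replicate 2. The SD of their log2 TPM was 0.513 ± 0.0044, beside 1.85 ± 0.0024 over all detected protein-coding genes. They spanned a narrower range than detected genes at large. The assembled particle holds most of these subunits in equal numbers.

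In the alpha ring, the gate of the barrel, the median was 52.9 ± 0.74 TPM. In the gene table Psma3 was the highest at 91.2 TPM in replicate 1 and 88.2 in replicate 2. Psma7 followed at 76.7 and 73.3. These were the only alpha subunits above 70 TPM in either animal. The lowest alpha subunit was Psma2 with 25.8 and 26.3, and Psma5 was next with 35.4 and 38.7. In that table Psma2 was also the lowest of all 31 constitutive subunits in both animals. On coding transcripts Psma3 was not the highest alpha subunit. In the first transcript table its coding mean was 50.8 TPM, below Psma7 with 63.7 and Psma6 with 60.4. In the second, Psma3 was the lowest alpha subunit on coding transcripts, with 13.83 TPM in replicate 1 and 14.24 in replicate 2.

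In the beta ring the median was 78.1 ± 2.22 TPM. Psmb4, a structural subunit with no active site, was the highest of all members in the gene table at 117.0 TPM in replicate 1 and 124.2 in replicate 2. In the second table it was still the highest beta subunit, at a mean of 171.3 TPM, but Psmc3 with 180.4 and Psma3 with 178.4 lay above it. Coding transcripts held 53.3 ± 4.6% of the TPM of Psmb4 in the first transcript table and 59.7 ± 5.6% in the second. On coding transcripts the mean of Psmb4 was 64.2 TPM in the first, below Psmb7 with 91.4, Psmb5 with 78.4 and Psmb6 with 68.1. In the second it was 101.9, below Psmb7 with 154.2 and Psmb5 with 105.9 but above Psmb6 with 93.4. In the gene table the lowest were Psmb2 with 39.2 and 40.4 and Psmb3 with 53.3 and 52.0, which are also structural. In that table the 3 subunits that carry active sites lay between these and Psmb4. Psmb5, the chymotrypsin-like subunit, measured 77.0 TPM in replicate 1 and 79.7 in replicate 2. Psmb6, the caspase-like subunit, measured 76.6 and 81.2, and the ratio of Psmb5 to Psmb6 was 0.994 ± 0.017. Psmb7, the trypsin-like subunit, measured 89.0 and 94.7 and was above both in each animal, at 1.16 ± 0.0028 times Psmb6.

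Among the 43 members with a mean count of at least 100, the active-site subunits Psmb5 and Psmb6 had the lowest ratios of counts between the programs. The second transcript table gave Psmb5 0.632 ± 0.014 and Psmb6 0.734 ± 0.0033 times the counts of the gene table, while the median of the 43 was 1.00 in both animals. Over the 11762 detected protein-coding genes with as many counts, the ratio had a median of 1.07. Its 5th percentile was 0.913 in replicate 1 and 0.916 in replicate 2. Psmb5 shared 22.2% of its 100-base words with other genes on its strand, almost all with the pseudogene Gm3375, which had 141.1 and 139.4 counts in the gene table and 117.7 and 109.3 in the second. Psmb6 shared none. The part of shared sequence in these ratios was not tested.

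The 6 ATPases of the base, which unfold the substrate, had a median of 69.5 ± 0.98 TPM. Psmc3 was the highest by mean at 84.9 TPM in replicate 1 and 95.4 in replicate 2, and Psmc1 measured 86.0 and 88.2, so the order of these 2 changed between animals. The lowest in the gene table were Psmc6 with 41.2 and 40.7 and Psmc2 with 51.5 and 51.4. In the second table Psmc6, with 107.2 and 104.7, lay above Psmc2, with 88.1 and 88.0, and Psmc4, with 84.3 and 85.3. The 6 subunits are present once each in the ATPase ring, and their levels spanned 2.22 ± 0.18-fold.

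The 11 other regulatory subunits had a median of 49.3 ± 1.87 TPM. Psmd2, a large scaffold of the base, was the highest at 101.8 TPM in replicate 1 and 100.7 in replicate 2. Psmd4, a ubiquitin receptor, was next in the gene table with 64.1 and 68.3, but not in the second, where Psmd8 followed Psmd2. The lowest was Psmd12, a lid scaffold, with 31.7 and 31.9. By mean, Psmd11 followed in the gene table with 42.6 and 48.1, and Psmd7 in the second. In replicate 2 of the gene table Psmd6 with 44.87, Psmd7 with 46.85 and Psmd1 with 47.15 lay between Psmd12 and Psmd11. Psmd14, the enzyme that cuts ubiquitin off the substrate, lay near the middle with 47.9 and 53.5.

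Subunits and partners with other kinds of symbols stood at similar levels. All 10 listed genes were detected, with a median of 47.8 ± 0.39 TPM. The highest were Pomp, the maturation factor of the core, with 81.0 TPM in replicate 1 and 80.9 in replicate 2, and Zfand5, a proteasome-binding zinc-finger protein, with 78.5 and 75.3. Usp14, a deubiquitinase that docks on the base, measured 73.1 and 72.2, and Ecpas, an adaptor that binds the regulatory particle, 59.3 and 53.9. The lowest was Uchl5, another docked deubiquitinase, with 16.9 and 18.8, although the second table gave it 53.6 and 55.2 and had Sem1 as the lowest with 19.2 and 17.6. The intrinsic subunits of this list, the receptor Adrm1 with 44.4 and 45.2 and the small lid subunit Sem1 with 21.7 and 22.2, lay within and just below the range of the constitutive members.

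Upstream of the particle, all 6 listed genes of ubiquitin and its activation were detected, among them the ubiquitin gene Ubb with 770.2 and 799.4 TPM. The lowest was Uba6, a second activating enzyme, with 11.4 and 10.8. All 9 shuttle factors and unfoldase genes were detected with a median of 55.7 ± 0.64 TPM. Ubqln2, a shuttle that carries ubiquitin-tagged proteins, led in the gene table with 95.3 and 95.4, and Ddi2, the protease that activates the product of Nfe2l1, was the lowest with 20.4 and 17.4. Of 6 genes for the transcription of proteasome genes, 5 were detected. Nfe2l1, the main activator of proteasome genes, stood at 124.9 and 115.3 TPM, and its dimer partner Mafg at 44.4 and 40.0. Nfe2l2, its relative in the oxidative stress response, stood at 5.94 and 5.04, and Maff was the lowest with a mean of 0.885 ± 0.45 TPM.

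Promoters of the constitutive active-site genes Psmb5 and Psmb6 are shown because they carried the antioxidant-type motif to which the factors of Nfe2l1 and Nfe2l2 can bind, spelled TGACNNNGC and marked in capitals. Sequences are from RefSeq (GRCm38.p6), on the strand of the gene, ending before the annotated starts of both RefSeq and GENCODE. The Psmb5 stretch is chr14:54618023-54618145 (minus) and the Psmb6 stretch is chr11:70525207-70525356 (plus).

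Psmb5: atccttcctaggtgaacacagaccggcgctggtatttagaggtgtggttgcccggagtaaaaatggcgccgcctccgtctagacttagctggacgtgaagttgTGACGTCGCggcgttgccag
Psmb6: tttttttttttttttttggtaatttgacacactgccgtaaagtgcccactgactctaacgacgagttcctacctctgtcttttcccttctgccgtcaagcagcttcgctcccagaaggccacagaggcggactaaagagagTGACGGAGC

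The motif began 47 bases before the RefSeq start of Psmb5 and 9 bases before that of Psmb6. Promoter windows, 250 bases before to 50 after the RefSeq start, were found for 42 members, with 45 windows in all, and were searched on both strands. TGACNNNGC was in 13.3% of them (Psmb5, Psmb6, Psmc6, Psmd12, Psmd9 and Psme4) and in 12.4% of 32851 windows of all genes. The interferon-type motif GAAANNGAA was in 15.6% of member windows (Psmb3, Psmb4, Psmc2, Psmd4, Psmd9, Psme1 and Psmg4) and 8.56% of all. No match was found for Psmb8, Psmb9 or Psmb10, but 8 members had no window to search. CCAAT was in 33.3% of member windows and 37.4% of all. A match is a description of letters and shows no bound factor.

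The 3 immunoproteasome subunits did not share a level. Psmb8, the counterpart of Psmb5, measured 0.76 TPM from 16 counts in replicate 1 and 0.89 TPM from 19 counts in replicate 2. Psmb9, the counterpart of Psmb6, measured 0.26 TPM from 6 counts and 0.60 from 15. Both lay above the level of 3 counts, which was 0.143 and 0.140 TPM for Psmb8 and 0.130 and 0.120 for Psmb9. Psmb10, the counterpart of Psmb7, measured 36.0 TPM from 456 counts and 40.2 from 548, within the range of the constitutive subunits.

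As a share of the pair with its constitutive counterpart, Psmb8 made up 1.04 ± 0.09% of TPM. In counts the share was 1.28% in replicate 1 (exact binomial 95% interval 0.734 to 2.07) and 1.32% in replicate 2 (0.795 to 2.05). Psmb9 made up 0.536 ± 0.28% of TPM, with count shares of 0.566% (0.208 to 1.23) and 1.18% (0.664 to 1.94). The animals' intervals overlapped for both genes. Psmb10 made up 29.3 ± 0.69% of TPM, with count shares of 19.2% (17.6 to 20.8) and 19.4% (18.0 to 20.9). The intervals cover counting error only.

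The TPM of Psmb10 lay mostly on transcripts that do not code for the subunit. In the first transcript table, coding transcripts held 21.4 ± 0.85% of its TPM, and in the second 33.7 ± 6.4%. The gene lies at chr8:105935735-105938444 (mm10, minus strand), and its 1 coding transcript, Psmb10-201, spans 8 exons and had 7.91 TPM in replicate 1 and 8.34 in replicate 2. The leading transcript of the first table was Psmb10-205, a retained-intron model of 554 bases and 4 exons at chr8:105935736-105937038, the 3′ side of the gene, with 17.15 and 18.20 TPM. The second table placed 22.7 and 18.4 TPM on another retained-intron model of the same side, Psmb10-207, which was at 0 in the first, and 20.7 and 20.6 on Psmb10-201. It disagreed between the animals on Psmb10-205, listed at about 0 in replicate 1 and at 20.2 TPM in replicate 2. In counts, which do not correct for the longer coding transcript, the second table gave Psmb10-201 most of the gene, 310.5 of 487 in replicate 1 and 344.8 of 602 in replicate 2. Counting coding transcripts only, Psmb10 made up 8.17 ± 0.065% of the pair with Psmb7 in the first table and 11.8 ± 0.55% in the second. This was above the coding shares of Psmb8, 0.454 ± 0.24%, and Psmb9, 0.66% in replicate 2 and listed at 0 in replicate 1, in the first table.

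**Figure D2:**
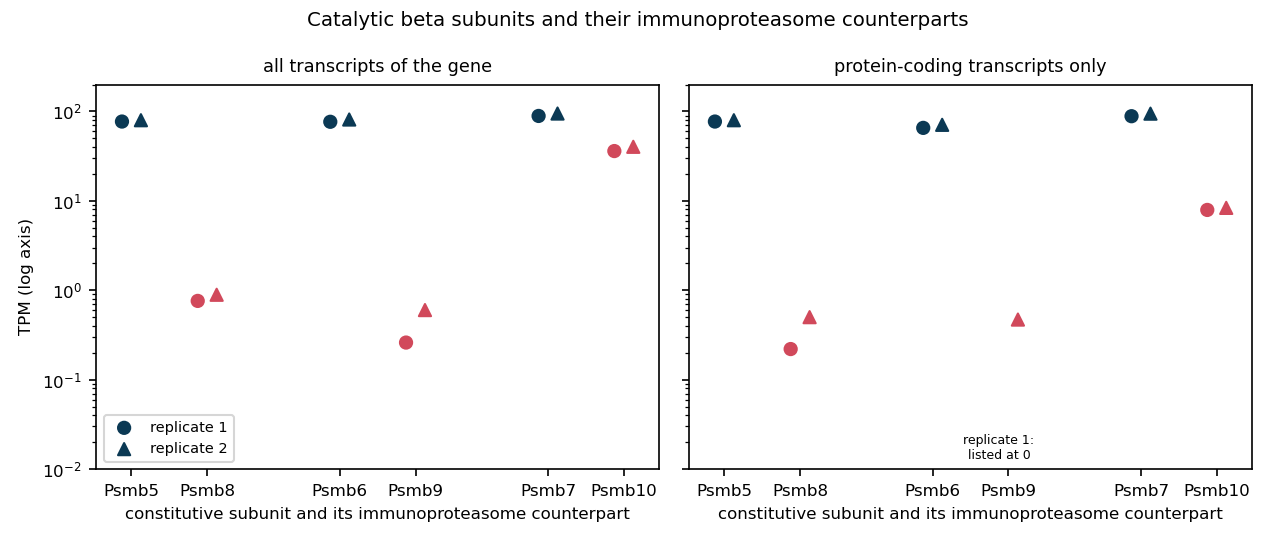
TPM on a log axis of the 3 constitutive active-site subunits (dark blue) and their immunoproteasome counterparts (red) in replicate 1 (circles) and replicate 2 (triangles), for all transcripts (left, gene table) and for protein-coding transcripts (right, first transcript table). Psmb8 and Psmb9 lie below 1 TPM in both panels, and Psmb10 falls from 36.0 and 40.2 TPM on the left to 7.91 and 8.34 on the right.

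Psmb8 and Psmb9 lie 9956 bases apart in the MHC region of chromosome 17, and Psmb9 overlaps Tap1, a peptide transporter of the same pathway on the opposite strand, by 212 bases of gene extent. Tap1 was at 0.84 and 0.65 TPM, close to Psmb8. Whether counting used the strand is not stated in the sources used here, so for the 113 of 4142 100-base words of Psmb9 found on the other strand of Tap1, reads of the 2 genes could not be told apart without it. Of 12 interferon and class I antigen processing genes, 10 were detected. All 12, with those not detected, had a median of 7.33 ± 0.06 TPM. They ranged from B2m, the class I light chain, with 41.3 and 46.9 TPM, and Ifngr2, an interferon receptor chain, with 20.1 and 20.5, to Nlrc5, the class I transactivator, with 0.09 and 0.31. Tapbp, the class I loading factor, stood at 16.1 and 16.5 and Ifngr1 at 8.81 and 9.11.

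Immune cells express the immunoproteasome, so their markers are given beside it. All 8 microglia markers were detected with a median of 17.9 ± 0.62 TPM and a summed level of 163.7 in replicate 1 and 160.8 in replicate 2, among them Csf1r with 35.0 and 34.7. None of 6 leukocyte markers was detected in both animals, with sums of 1.32 and 1.34 TPM, of which Ptprc made up 0.91 and 1.12. Ly6g and Nkg7 were at 0 in both animals. All 6 neuron markers were detected, with Snap25 at 1168 and 1155 TPM. The part of these cells in the level of the immunoproteasome genes was not tested.

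The tissue-specific core subunits were at or near the level of 3 counts in the gene table. Psma8, the testis counterpart of Psma7, had 2 counts in replicate 1 and 3 in replicate 2, or 0.15 and 0.14 TPM. Psmb11, the thymus counterpart of Psmb5, had 5 and 2 counts, or 0.06 and 0.02 TPM, and its gene lies 3410 bases from Psmb5 on chromosome 14. The second table gave Psmb11 more, 21.96 and 18.99 counts or 0.36 and 0.28 TPM, and its share of the pair with Psmb5 was 0.0515 ± 0.037% in the gene table and 0.303 ± 0.033% in the second. Of 5 germ cell markers 1 was detected, Dazl with 1.68 and 1.66 TPM, and Tnp1 and Prm1 were at 0.

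Among the activators Psme3, which forms the nuclear cap, was the highest with 52.5 TPM in replicate 1 and 49.6 in replicate 2. Psme1 and Psme2, the 2 chains of the interferon-inducible cytosolic cap, measured 18.95 and 17.20 TPM for Psme1 and 19.64 and 20.92 TPM for Psme2. Psme4, a large single-chain cap, measured 19.2 and 18.2. Psme3 was thus 2.83 ± 0.079 times Psme1, and Psme4 was 1.04 ± 0.033 times Psme1, a ratio that was 0.67 ± 0.018 in the second table. The ratio of Psme1 to Psme2 was 0.894 ± 0.10 by all transcripts of the gene table, 1.65 ± 0.45 by all transcripts of the second table and 1.37 ± 0.084 by coding transcripts of the first, so which chain was higher depended on the table and the transcripts counted. The genes lie 5911 bases apart on chromosome 14.

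Psme2b, the near copy of Psme2 shown above, had 2.21 and 3.54 expected counts, or 0.15 and 0.21 TPM, which was at the level of 3 counts (0.202 and 0.181 TPM). It shared 384 of its 738 100-base words, 52%, with Psme2, and Psme2 shared 18.4% of its words. Psme2b took 0.876 ± 0.17% of the TPM of the pair, and the second table listed it at 0 in replicate 1. How programs split reads between the pair is uncertain, and levels of both genes carry that limit.

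Psmf1, which encodes the inhibitor and assembly regulator PI31, measured 17.1 TPM in both animals, close to Psme1 and Psme4.

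The 7 assembly chaperones among the members had lower medians than the subunits they help to assemble. Those of the core, which act in pairs on the alpha ring, had a median of 9.19 ± 0.19 TPM. Psmg1 measured 7.99 TPM in replicate 1 and 7.62 in replicate 2, and its partner Psmg2 9.01 and 11.7. The other pair, Psmg3 and Psmg4, measured 9.11 and 9.19 for the former and 9.46 in both animals for the latter. Apart from Psmg2 in replicate 2, all 4 lay within 2 TPM of each other. The chaperones of the base had a median of 11.6 ± 0.76 TPM. Psmd5 measured 15.8 and 16.6, Psmd9 11.04 and 12.11, and Psmd10, also known as gankyrin, 8.23 and 9.17. In the gene table all 7 lay below the lowest constitutive subunit, Psma2, in both animals. In the second table Psmd5 lay above it, with 31.6 and 38.0 TPM beside 31.3 and 29.7. Pomp, the maturation factor of the core, is not among these 7 because of its symbol. It stood at 81.0 TPM in replicate 1 and 80.9 in replicate 2 of the gene table.

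Psmc3ip measured 1.06 TPM from 19 counts in replicate 1 and 1.71 from 38 in replicate 2, and 14.6% of its 100-base words lie on the opposite strand of Mlx, which had 552 and 548 counts.

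Most members, unlike Psmb10, carried their level on protein-coding transcripts. The median coding share over the 45 detected members was 92.2 ± 0.32% in the first table and 83.8 ± 1.81% in the second, beside 90.7 ± 0.67% and 88.8 ± 0.75% over all detected protein-coding genes. Psmb10 and Psmc3ip, 2 members, were under 50% in both animals of the first table, which was 4.44% of detected members against 7.82% of detected protein-coding genes. Under 50% in the second were 6 members, the added ones being Psma3, Psmc4, Psmc6 and Psmd13. The share of all genes under 50% was not taken in that table, so the count of 6 cannot be set against it. The coding share of Psma3 was 56.6 ± 6.0% in the first table and 7.87 ± 0.18% in the second, and that of Psmc6 58.6 ± 1.6% and 25.1 ± 1.4%. For these genes the gap between the tables was larger than the SD between the animals.

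Leading transcripts were the same in both animals, within each table, for 40 of 45 detected members. For 5 of those 40 the tables named different ones. The same shares over all detected genes were not taken, so these counts describe the members only. Psmb1 was led by Psmb1-201 in the first table, with 39.69 and 40.10 TPM, and by Psmb1-204 in the second, with 89.8 and 97.9. Psmd8 was led by Psmd8-202 with 56.3 and 55.4 TPM in the first and by Psmd8-201, at 0 in the first, with 61.6 and 74.5 in the second. These models are all protein-coding. Psme2 was led by the coding Psme2-201 with 6.05 and 9.22 TPM in the first and by the coding Psme2-208 with a mean of 20.8 ± 0.33 in the second. Psmc6 was led by the coding Psmc6-201 with 23.7 and 24.3 in the first, and by the processed transcript Psmc6-206 with 29.7 and 37.1 in the second. Psmc3ip was led by noncoding models in both.

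**Figure D3:**
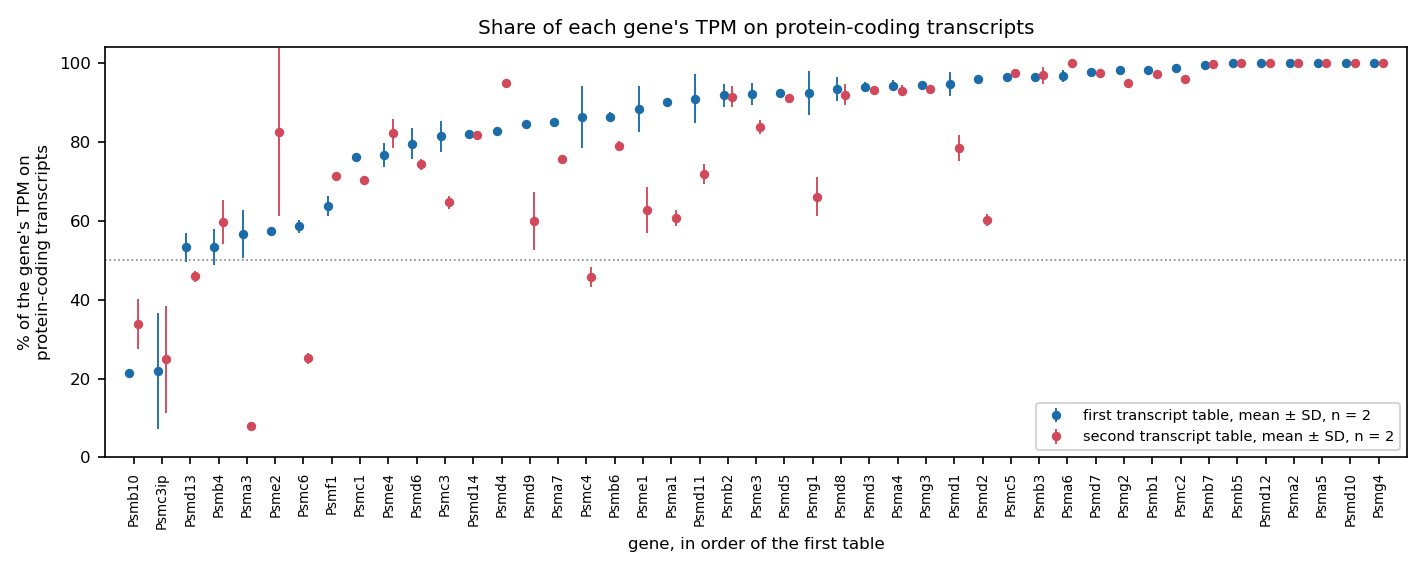
Share of each detected gene's TPM on protein-coding transcripts (percent, vertical axis) in the first (blue) and second (red) transcript tables, with points at the mean and bars at the SD of 2 animals; the dotted line marks 50%. Most genes lie above 80% in the first table, and fewer do in the second. Psmb10 and Psmc3ip lie below the line in both, and Psma3, Psmc4, Psmc6 and Psmd13 drop below it in the second table.

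Most of the genes that shared 100-base words with members on the same strand were pseudogenes. On that strand, 14 members shared 100-base words with another gene and 36 shared none, and 5 members shared over 10%: Psme2b, Psma5 (23.7%), Psmb5, Psme2 and Psma3 (13.4%). The same shares over all genes were not taken. Exact words miss near copies that differ within every 100 bases, so sharing none does not mean that all reads could be told apart. Gm13835, a processed pseudogene that shares words with Psma3, held 164.9 and 227.3 counts in the gene table beside 1594 and 1741 for Psma3, and 0 in the second table. Gm8394, a copy of Psma5, held 130.6 and 151.5 beside 812 and 993 for Psma5. Levels of these members are uncertain for this reason, and the size of the uncertainty was not tested. The mapping of CAST/EiJ alleles to a C57BL/6J reference was not tested.

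Across the members the gene table and the second table ordered levels alike, with a Spearman correlation of 0.946 over the 47 members that averaged at least 10 counts, both tables being made from the same reads. TPM was higher in the second table. Over the 43 members that averaged at least 100 counts, the median ratio was 1.63 in replicate 1 and 1.66 in replicate 2. It was 1.57 and 1.58 over the 11762 detected protein-coding genes with as many counts. Levels are therefore compared within a table.

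**Figure D4:**
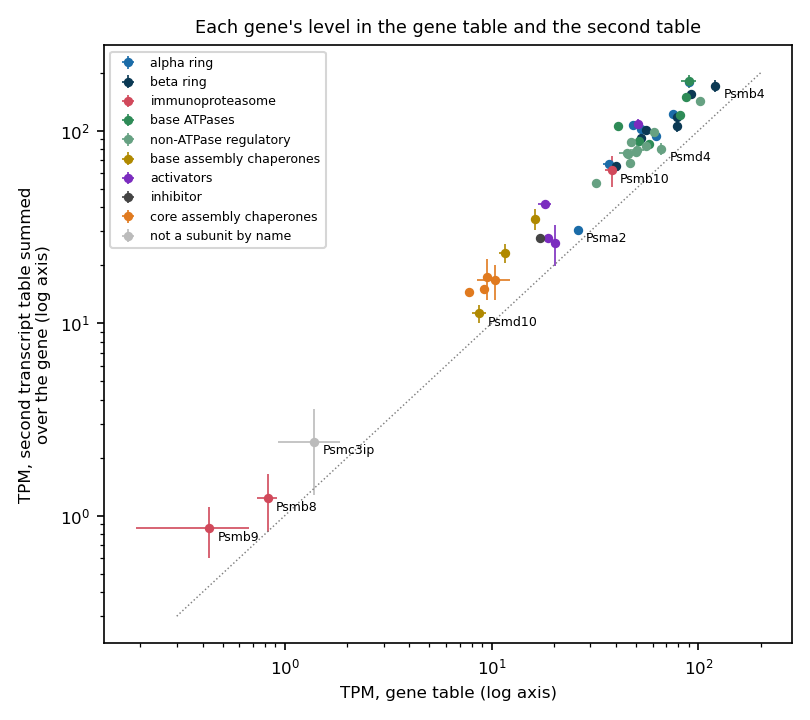
TPM of each gene averaging at least 10 counts in the gene table (horizontal) and summed over transcripts in the second table (vertical), both on log axes, with points at the mean and bars at the SD of 2 animals, coloured by role; the dotted line marks equal values. All 47 genes lie above the line, and Psma2 and Psmd4 lie closest to it of the 43 that averaged at least 100 counts.

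The animals differed little in these genes. The difference is log2 of replicate 2 over replicate 1 on TPM + 0.5, a scale that understates changes of low genes. The median over the 47 members with a mean count of at least 10 was 0.04, and 31 were higher in replicate 2, 15 were lower and 1 was equal. That was 66% higher, beside 41.5% of 18136 genes with the same count minimum, whose median was -0.03. Scaled counts gave other splits. By TMM, 40 members (85.1%) were higher beside 52% of genes, with medians of 0.08 and 0.01, and by the spike-in total all 47 were higher beside 80% of genes, with medians of 0.23 and 0.15. The direction of single members therefore depended on the scale where the difference was small.

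More than 25% apart (the higher over the lower animal) were 3 members, 6.38%, beside 14.3% of genes, and on the TPM + 0.5 scale none was past 2-fold. They were Psmg2, Psmb9 and Psmc3ip. Psmg2 was higher in replicate 2 by 0.36, from 175 counts in replicate 1 and 254 in replicate 2, and by 0.41 in TMM-scaled counts, with a 95% counting interval of 0.13 to 0.70. Psmb9 was higher by 0.53 in TPM + 0.5 and by 1.14, past 2-fold, in TMM-scaled counts, with an interval of -0.25 to 2.85 that held 0. Psmc3ip was higher by 0.50 and by 0.86, with an interval of 0.05 to 1.75.

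Of members with a mean count of at least 100, Psmd11 followed Psmg2 in TPM among those higher in replicate 2, by 0.17. In TMM-scaled counts Psmd11 was higher by 0.12 (0.03 to 0.20), and there Psmd5 followed Psmg2, by 0.22 (0.08 to 0.37). In TPM the members most lower in replicate 2 were 2 activators. Psme1 differed by -0.14 in TPM and by -0.03 in TMM-scaled counts, with an interval of -0.24 to 0.18. Psme3 differed by -0.08 in TPM but by 0.11 in TMM-scaled counts (0.02 to 0.19), so its direction turned with the scale. The counting interval lay above 0 for 14 members and below 0 for none. These were 29.8% of the 47, beside 21.6% of genes whose interval excluded equality in either direction.

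**Figure D5:**
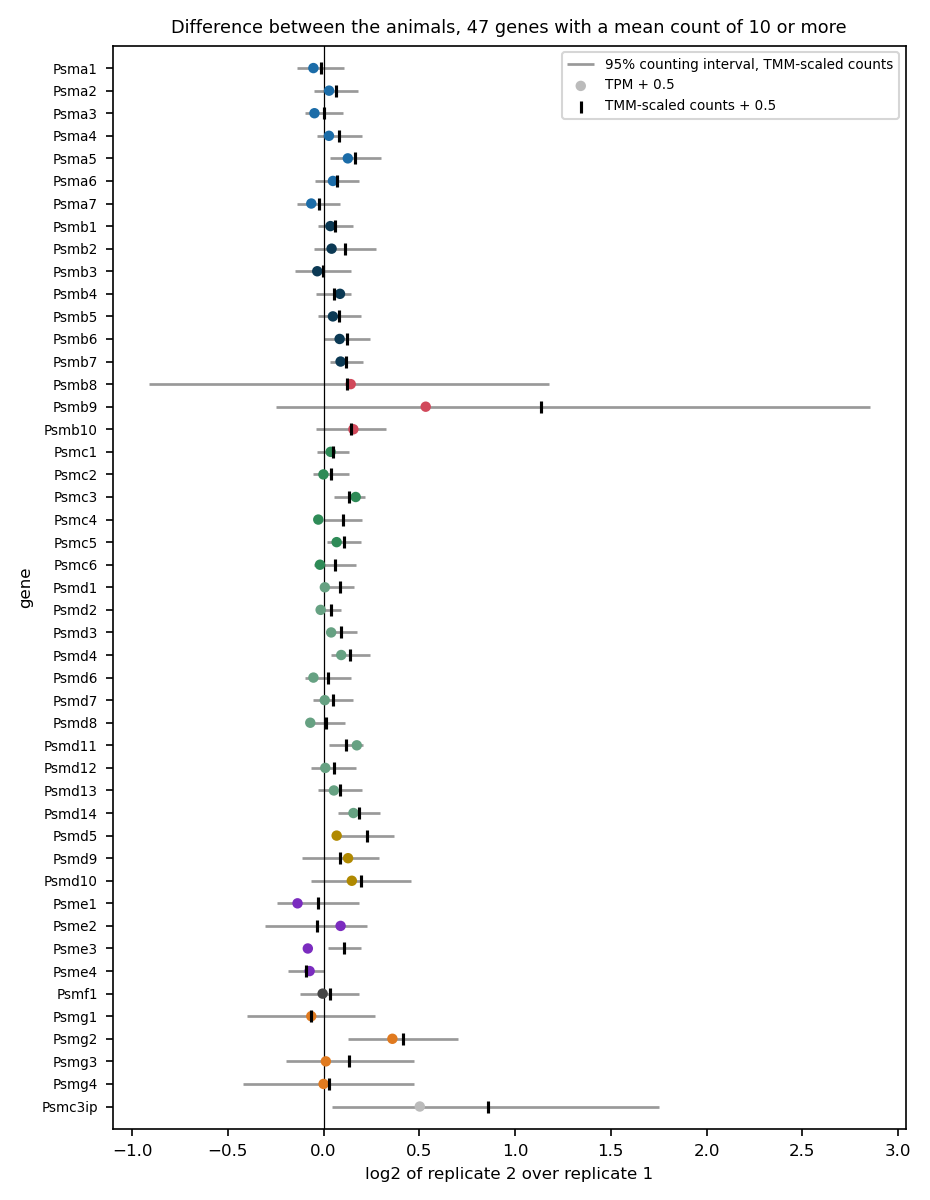
Log2 of replicate 2 over replicate 1 for the 47 genes that averaged at least 10 counts, on TPM + 0.5 (coloured points, by role) and TMM-scaled counts (black ticks), with the exact 95% counting interval of the scaled counts (grey lines). Most points lie within 0.2 of 0, Psmg2 stands at 0.36, and the widest intervals belong to Psmb9, Psmb8 and Psmc3ip, which had few counts.

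Markers of some cell types differed more between the same libraries than the proteasome genes did. All 5 oligodendrocyte markers were higher in replicate 2, by a median of 0.43 in TPM and 0.43 in TMM-scaled counts, with summed levels of 767.4 and 1031 TPM, and 4 were more than 25% apart. Astrocyte markers were lower in 4 of 5 by both, with medians of -0.17 and -0.08, and by the spike-in total 4 of 5 were higher. Neuron markers were lower in 6 of 6 by TPM but in 3 of 6 by TMM, with medians of -0.04 and 0.00, and by the spike-in total all 6 were higher, with a median of 0.14. Endothelial markers were lower in 4 of 6 by TPM and 5 of 6 by TMM, with medians of -0.06 and -0.11, and in 3 of 6 by the spike-in total. The 6 genes for the transcription of proteasome genes were all lower in replicate 2 in TPM, with a median of -0.18, and 4 of 6 by TMM, with a median of -0.15, while by the spike-in total 3 were higher. The constitutive subunits had medians of 0.04 in TPM and 0.07 by TMM. The part of cell type makeup in the differences of the members was not tested.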

How the data were processed

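Each library had a gene table and 2 transcript tables on mm10 with GENCODE M21, per the deposited file lists. The authors' gene table and first transcript table hold expected counts and TPM, per the file headers, whose column names are those of RSEM. The authors' first transcript table also gives each transcript's percent of its gene, per the file headers. The authors' other transcript table, called second here, has estimated counts and TPM in columns named as in kallisto output, per the file headers. The aligner is not given in the sources used here. Annotated genes held 30372235 and 33134266 expected counts.

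Members came from the symbol pattern; the members, lists and roles were chosen with earlier results of these data known. TPM is given by animal or as mean ± SD (n = 2), and detection is 1 TPM in both. Counts were rounded for intervals: exact binomial 95% intervals of TMM-scaled counts (edgeR 4.0.16, R 4.3.3), or of count shares. Intervals and the floor of 3 counts cover counting error only, because PCR copies of 1 molecule cannot be recognised. Words of 100 bases were compared between all GENCODE transcripts. Steps were tested on simulated counts. Biopython 1.88, scipy 1.17.1, matplotlib 3.10.9 and pandas 2.3.3 ran under Python 3.11.15. Values are named for all active-site subunits and their counterparts, activators, inhibitor and chaperones, for the 2 highest and 2 lowest by mean TPM of other roles, for the 2 members differing most each way among mean counts of at least 100, for members whose leading transcript differed between tables, and for up to 4 highest and the lowest of each list; others were named after their values were seen, and some genes of the lists are not reported here. Alternatives were the second table, posterior mean TPM, other pseudocounts, filters and scalings, each animal alone and, added after seeing the data, coding transcripts only.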

Additional observations from a re-analysis of the deposited data

How the results depend on the processing

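With 1 group of 2 animals, no result had a test. No paired analysis was possible because the labels give only 1 group. The values of either animal alone lay close to their mean, with ranges of 58.2 to 60 TPM for the median of the 14 ring subunits and 28.8% to 29.8% for the share of Psmb10; the share of Psmb9, from 6 and 15 counts, ranged from 0.338% to 0.734%. In the second transcript table the ring median was 105 TPM and the SD of log2 TPM over the 31 constitutive subunits 0.542, the share of Psmb8 was 1.17% and of Psmb10 28.6%, Psme3 over Psme1 was 2.61, Psme4 over Psme1 0.67, 6 members were under 50% coding and 7 were more than 25% apart. With posterior mean TPM the ring median was 57.7, the share of Psmb8 1.56%, of Psmb9 1.24%, Psme3 over Psme1 2.46 and Psme4 over Psme1 0.926, which turned the order of those 2 genes, as the second table did. On coding transcripts of the first table, chosen after seeing the data, the share of Psmb8 was 0.454% and of Psmb10 8.17%. Scaled to the spike-in total, the median difference was 0.23, 47 members were higher in replicate 2 and 6 were more than 25% apart. The cause of these shifts was not tested. The share of all genes under 50% coding was not taken in the second table. Nor were the shares of all genes more than 25% apart in the second table or by the spike-in total. Depth limits Psmb8, Psmb9, Psma8, Psmb11 and Psme2b, with at most 19 counts in an animal in the gene table and 24 in the second.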
